A study of Mus musculus with 4 samples.

Results

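The Ifitm genes encode small interferon-induced transmembrane proteins, and 4 of them are described here: Ifitm1, Ifitm2, Ifitm3 and Ifitm6, of the 27998 genes in the deposited tables. They were found by symbol. The family was chosen on measured values, namely a high level of Ifitm2 in CD8 T cells of the Ac library and of Ifitm1 in CD8 T cells of the C library, so those levels are a description and support nothing by themselves. The series, on CD8+ T cells that infiltrate a tumor, holds 4 mouse single-cell libraries named IgG, Ac, C and aC+C, with 1 library to a group, all titled as immune cells from a tumor. The labels do not spell out the group names, the tumor, the strain or any allele, and give an age of 6-8 weeks for every group. They also call the cells goblet cells of the gut and describe a sort of such cells from RedMUC298trTg mice. The data go against that, since Ptprc, the leukocyte antigen CD45, had a UMI in 87.0 to 91.3% of cells. The goblet cell genes Muc2 and Tff3 had 2 to 4 and 2 to 6 UMIs per library, and Fcgbp had 0 in 3 libraries and 47 in aC+C. Epcam, also listed as a goblet cell gene, was higher, with 473, 353, 541 and 305 UMIs (IgG, Ac, C, aC+C). With 1 library per group there is no replicate, no test was possible, and every interval given covers counting error only.

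IFITM proteins sit in the plasma membrane and in endosomes, where they hinder the fusion of enveloped viruses with the cell. Interferons of type I and type II raise their expression, and some cells, among them T cells, NK cells and macrophages, hold them without infection. Ifitm1 lies mostly at the cell surface; Ifitm2 and Ifitm3 lie mostly in endosomes and lysosomes, and Ifitm3 limits influenza virus infection in mice. Ifitm6 is a less studied member.

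The 4 genes are protein-coding neighbours on chromosome 7 within 63088 bases of the build GRCm38 (GENCODE M21). Ifitm2 lies at chr7:140954837-140955987 on the minus strand, Ifitm1 at chr7:140967221-140969825 on the plus strand, Ifitm3 at chr7:141009586-141010770 on the minus strand and Ifitm6 at chr7:141015699-141017924 on the minus strand. Ifitm1 and Ifitm2 were the members whose CD8 T cell levels chose the family. For each of them, 100 bases before the first annotated exon in its RefSeq promoter window (GRCm38.p6) are shown. They lie at chr7:140967928-140968027 on the plus strand (Ifitm1) and chr7:140955988-140956087 on the minus strand (Ifitm2). The stretch of Ifitm3 at chr7:141010716-141010742 on the minus strand that holds its 2 matches is shown as well. The Ifitm1 piece lies inside the gene's annotated span, which starts further upstream, and the Ifitm3 stretch lies in its first exon. Capitals mark the letters GAAANNGAAA, the core of the element that interferon-activated factors bind.
Ifitm1: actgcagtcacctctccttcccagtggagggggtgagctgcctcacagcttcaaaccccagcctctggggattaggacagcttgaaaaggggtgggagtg
Ifitm2: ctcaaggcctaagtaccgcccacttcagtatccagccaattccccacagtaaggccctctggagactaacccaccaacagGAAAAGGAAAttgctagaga
Ifitm3: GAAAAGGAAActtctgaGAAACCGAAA

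Both strands of a window of 300 bases, 250 before the RefSeq start site and 50 after it, were searched. The core occurred once upstream of Ifitm2, at bases 46 to 37 before the start, and 2 times just after the start of Ifitm3, whereas these letters were not in the windows of Ifitm1 and Ifitm6. The same letters occurred in 3.44% of 32851 promoter windows (1131), and in 14 of the 24 genes of the interferon list used below that had a window (58.3%). The gamma-activated site core TTCNNNGAA, found in 8.30% of windows, matched in Ifitm3, where it overlaps the second match of the other core, and in Ifitm6. The TATA box letters TATAAA, found in 13.6%, matched in Ifitm6 and on the opposite strand in Ifitm2.

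Cells were barcodes with at least 1000 UMIs and at most 10% mitochondrial UMIs, 15755 in all, with 3436, 4028, 4210 and 4081 in the libraries (values stand in the order IgG, Ac, C, aC+C) and median depths of 10492 to 11594.5 UMIs. A UMI marks 1 captured transcript molecule. Gates on marker genes gave 4082 CD8 T cells (1091, 1220, 747 and 1024), 1575 NK cells (428, 412, 514 and 221), 4033 myeloid cells (517, 1037, 1137 and 1342) and 1006 stromal cells (143, 219, 256 and 388). In the CD8 T gate 96.3 to 99.1% of cells had a Cd3e UMI, and in the NK gate 90.5 to 93.2% had one of Ncr1, a receptor of NK cells. Between 12.8 and 25.2% of a library's cells fell in no gate. Each of the 6 pairs of libraries shared 2 to 7 barcodes, 56 cells in all.

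Levels are UMIs of a gene per 1000000 UMIs of all cells of a gate (CPM). Ifitm3 was a gene of myeloid and stromal cells. In the myeloid gate its level was 3357, 2654, 2924 and 3425 CPM, and in the stromal gate 2527, 2255, 2247 and 2531. The NK gate held 484, 384, 475 and 599.5 CPM of it and the CD8 T gate 109.7, 107, 195 and 128. The order myeloid, stromal, NK, CD8 T thus held without overlap of the libraries' ranges. The stromal cells were the deepest, with median UMIs of 37987 to 56898, against 8893 to 13350 in the gates of the other three kinds.

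Ifitm2 was spread over more gates. It stood at 1421, 1199, 1175 and 1265 CPM in the myeloid gate and at 1064, 874, 1088 and 1098 in the NK gate. The stromal gate followed with 656, 576, 677 and 501 CPM and the CD8 T gate with 143, 281, 219 and 234. These 4 ranges did not overlap either, with NK cells second for Ifitm2 where stromal cells were second for Ifitm3. Within the stromal gate the fibroblast cells, rich in collagen genes, had 684 to 829 CPM of Ifitm2 and the cells with genes of mesenchymal tumor cells 374 to 439.

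Ifitm1 had no such clear order. The NK gate held 431, 286, 565 and 497 CPM and the myeloid gate 380.3, 428, 290.1 and 491, ranges that overlapped. The CD8 T gate held 119.8, 213, 305 and 242 CPM, and its C library lay above the lowest myeloid and NK libraries. The stromal gate, with 139, 148, 229 and 194 CPM, lay within the range of the CD8 T gate. Outside these gates the dendritic cells held 329 to 772 CPM, while B cells, 4 to 63 per library, had 0 to 3 UMIs of Ifitm1 and of Ifitm2.

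Among the 4 gates Ifitm6 was mainly a myeloid gene. Its level in the myeloid gate was 61.1, 50.01, 56.0 and 105 CPM. The CD8 T gate had 2, 1, 8 and 3 UMIs of it in all, the NK gate 0, 0, 0 and 2 and the stromal gate 4, 0, 23 and 13, so no ratio is given there. Myeloid cells carried 50.1 to 75.6% of a library's Ifitm6 UMIs in cells.

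**Figure D1:**
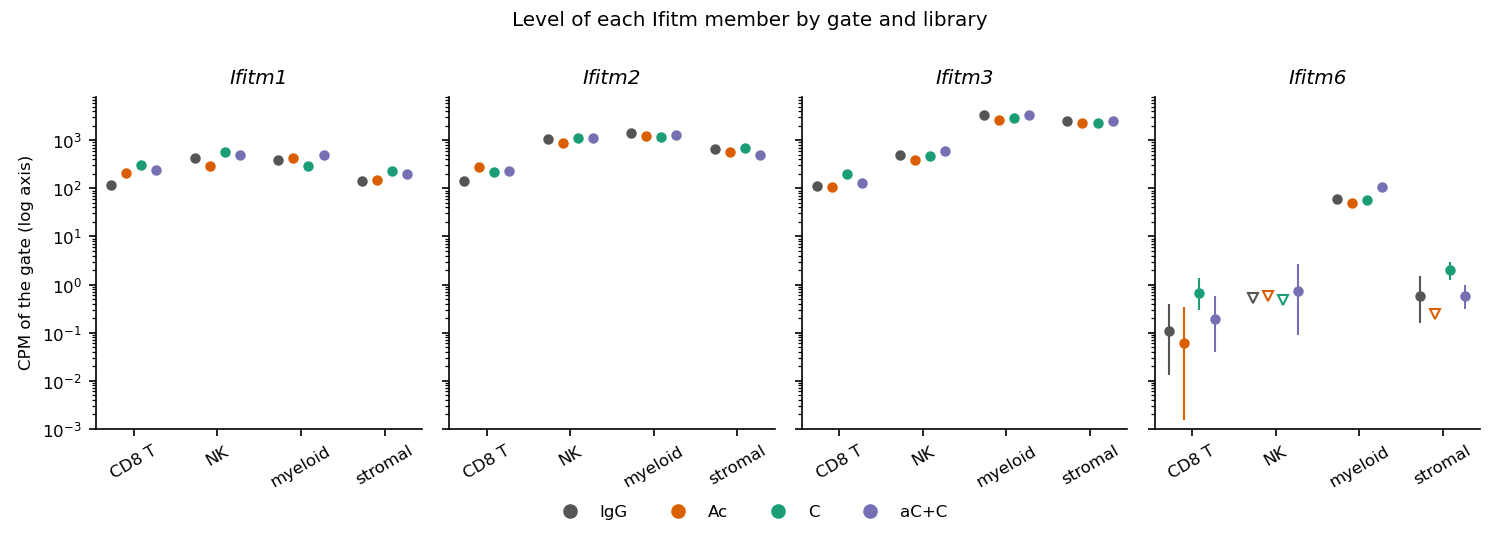
Level of each member (UMIs per 1000000, log axis) in the CD8 T, NK, myeloid and stromal gates of the 4 libraries, with 95% Poisson intervals and open triangles at a floor of 3 counts where a library had 0 UMIs. Ifitm3 separates myeloid and stromal cells (2247 to 3425 CPM) from lymphocytes (107 to 599.5), and Ifitm6 stands at 50.01 to 105 CPM in myeloid cells.

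Free RNA, taken from barcodes of 1 to 50 UMIs, was 325 to 359 CPM Ifitm1, 699.6 to 851 Ifitm2, 1171 to 2029 Ifitm3 and 16.1 to 37.9 Ifitm6. The CD8 T gate lay below this in every member and library. Its Ifitm3 level is the one such RNA touches most: after subtraction of 5% of each gate's UMIs with that profile it was 53.9, 37.6, 123.5 and 28.0 CPM.

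The myeloid gate was a mixture, and its members differed inside it. Its monocyte part (176, 266, 362 and 557 cells) held 5094, 5096, 5167 and 5217 CPM of Ifitm3, a range so narrow that the libraries' intervals overlap. Its macrophage part (340, 764, 770 and 783 cells) held 2723, 2173, 2303 and 2632 CPM. Ifitm6 was 190.1, 261, 220.1 and 306 CPM in monocytes and 14.1, 8.44, 10.3 and 15.6 CPM in macrophages. Both members were therefore higher in monocytes in every library. In aC+C, the library with the most monocyte cells, the Ifitm6 level of monocytes was 1.61 times that of IgG (1.42 to 1.83). In macrophages it was 1.11 times (0.821 to 1.51), and in the whole myeloid gate 1.72 times (1.53 to 1.93). With a minimum of 8000 UMIs per cell the Ifitm6 level of C fell from 56.0 to 32.2 CPM and its ratio to IgG from 0.915 to 0.569, against 1.18 as a mean of per-cell levels; the interval of the reported ratio, 0.805 to 1.04, holds 1.

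**Figure D2:**
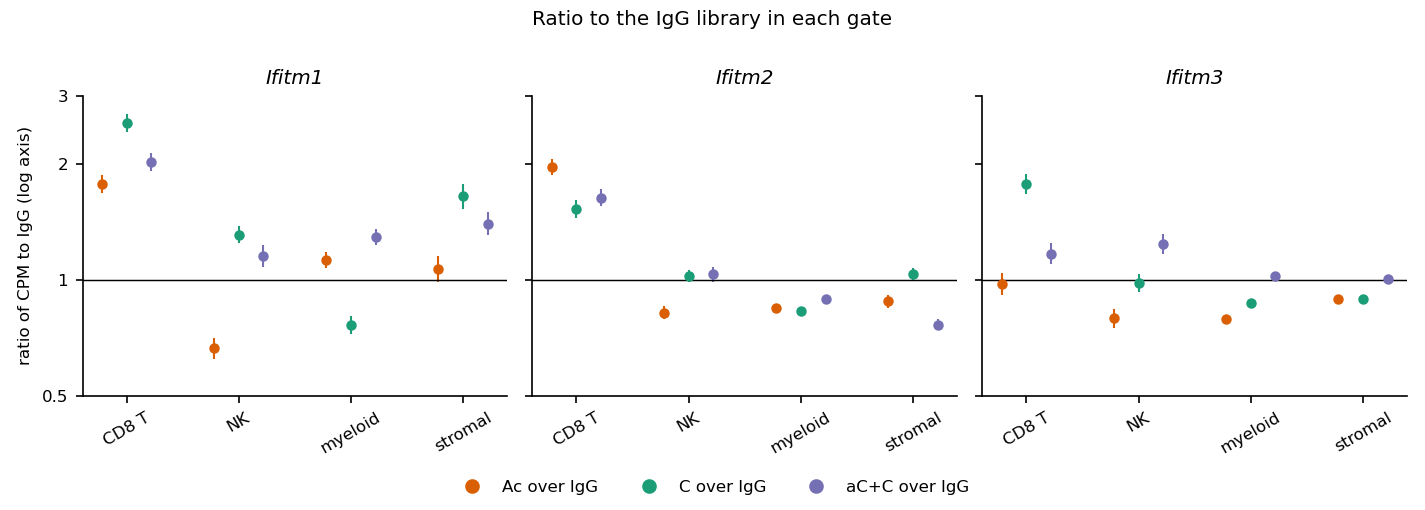
Ratio of each group's level to that of IgG (log axis) for Ifitm1, Ifitm2 and Ifitm3 in each gate, with 95% intervals from counts and a line at 1. In the CD8 T gate Ifitm1 and Ifitm2 lie above 1 in all 3 groups, and Ifitm1 in C is the highest ratio plotted, at 2.55.

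In CD8 T cells Ifitm1 was 1.78 times the IgG level for Ac (1.68 to 1.87), 2.55 times for C (2.42 to 2.69) and 2.02 times for aC+C (1.91 to 2.13). For Ifitm2 these ratios were 1.96 (1.87 to 2.06), 1.53 (1.45 to 1.61) and 1.63 (1.55 to 1.72). For Ifitm3 they were 0.974 (0.913 to 1.04), 1.78 (1.67 to 1.89) and 1.17 (1.096 to 1.24). The 3 comparisons share the IgG library, so they are not separate evidence. Set directly against one another, aC+C had 1.14 times the Ifitm1 and 0.833 times the Ifitm2 of Ac, and 0.792 times the Ifitm1 and 1.07 times the Ifitm2 of C. The combined name thus went with values between those of Ac and C for both members.

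A ratio of at least 1.5 in either direction was the size used for counting genes. Over all genes measured in the CD8 T gate it was passed upward by 1.19%, 2.1% and 1.54% (Ac, C, aC+C), and downward by 1.91%, 0.951% and 4.63%. Of the 3 members with enough UMIs, Ifitm1 and Ifitm2 passed upward in all 3 groups and Ifitm3 in C. Since these contrasts chose the family, nothing is read from that count. In the other gates 1.45%, 2.39% and 5.2% of genes passed in either direction in NK cells (Ac, C and aC+C), 4.87%, 4.75% and 6.8% in myeloid cells and 3.57%, 4.73% and 8.88% in stromal cells. There the members past that size were Ifitm1 of NK cells in Ac (0.663), Ifitm6 of myeloid cells in aC+C (1.72) and Ifitm1 of stromal cells in C (1.65), each 1 member among 3 or 4.

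NK cells did not follow the CD8 T cells in Ac. Their Ifitm1 ratio to IgG was 0.663, 1.31 and 1.15 (Ac, C, aC+C), and that of Ifitm2 was 0.822, 1.02 and 1.03. Ifitm3 was at 0.793, 0.9799 and 1.24. All 3 members were thus lower in the Ac library's NK cells than in those of IgG. Without the 1% of NK cells richest in Ifitm1 its Ac level was 145 CPM in place of 286. In myeloid cells Ifitm2 was at 0.844, 0.827 and 0.890 and Ifitm3 at 0.791, 0.871 and 1.02.

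Some CD8 T gate cells held antigen-presenting class II genes, and this moves the result. Cells with at least 20 class II UMIs per 10000 were left out, 44, 7, 34 and 5 of them. With them kept, Ifitm1 was 203, 213, 331 and 249 CPM, and its ratios were 1.046, 1.63 and 1.23 in place of 1.78, 2.55 and 2.02. Ifitm2 was then 188, 279.6, 238 and 239 CPM, a ratio of 1.48 in Ac, and Ifitm3 was 194, 107, 244 and 136 CPM, with ratios of 0.554, 1.26 and 0.6996. IgG was the library whose values rested most on those few cells. In the cells kept, the summed myeloid markers stood at 41.8, 60.4, 90.7 and 76.7 CPM (18206 to 21496 in the myeloid gate) and the summed NK markers at 54.7, 26.9, 96.2 and 12.8 CPM (1411 to 1595 in the NK gate). A UMI of Lyz2, a macrophage and monocyte gene, was seen in 18.7, 23.4, 39.9 and 40.2% of them. The part of these markers in the member levels was not tested.

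The question of which CD8 T cells carry each member begins with how unevenly the UMIs were spread. The 5% of CD8 T cells with the most UMIs of Ifitm1 held 83.8, 84.9, 65.2 and 71.7% of them, for Ifitm2 60.9, 46.3, 45.0 and 48.0% and for Ifitm3 54.7, 57.0, 36.6 and 50.1%. With every cell thinned to 1000 UMIs, the share of CD8 T cells with an Ifitm1 UMI was 5.59, 7.30, 11.1 and 9.57%, and with an Ifitm2 UMI 7.33, 15.7, 13.8 and 14.2%. Unthinned these shares were 15.3, 15.2, 24.8 and 20.6%, and 33.7, 39.6, 48.7 and 42.8%, at median depths of 11003.5 to 13350 UMIs. The 63 B cells of aC+C, at a median of 3353 UMIs, had 1.59% for Ifitm1 and 3.17% for Ifitm2 when thinned, and 4.76% for both unthinned. Thinned Ifitm3 shares were 7.70, 7.87, 15.8 and 9.96% in CD8 T cells and 6.35% in those B cells. The IgG and Ac shares lay closest to that of the B cells. Free RNA held 2029 CPM of Ifitm3 in aC+C, against 1171 in IgG and 1422 in Ac. The B cells of aC+C are thus not a like background for IgG and Ac. Whether B cells hold Ifitm3 of their own was not tested.

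A cell was called high in a member at 500 CPM or more with at least 3 UMIs, among cells with at least 5000 UMIs (1011, 1180, 692 and 912 CD8 T cells). Ifitm1-high cells were 65, 88, 97 and 96, or 6.43, 7.46, 14.0 and 10.5% of these. Ifitm2-high cells were 66, 200, 89 and 130, or 6.53, 16.9, 12.9 and 14.3%. Ifitm3-high cells were 63, 80, 81 and 61, or 6.23, 6.78, 11.7 and 6.69%. The groups thus differed in how many cells were high. The mean level within Ifitm2-high cells was 1099, 1347, 1094 and 1021 CPM, and in the remaining cells 63.1, 60.3, 84.9 and 78.5.

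For Ifitm1 the level inside high cells also differed. It was 1612, 2508, 2099.9 and 2185 CPM, while the remaining cells had 19.0, 11.7, 27.6 and 20.8 CPM. High cells held 85.4, 94.99, 92.2 and 92.4% of the Ifitm1 UMIs and 59.98, 82.3, 66.6 and 72.7% of the Ifitm2 UMIs. The larger Ifitm1 ratio of C than of Ac therefore went with a larger share of high cells and not with a higher level in them.

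**Figure D3:**
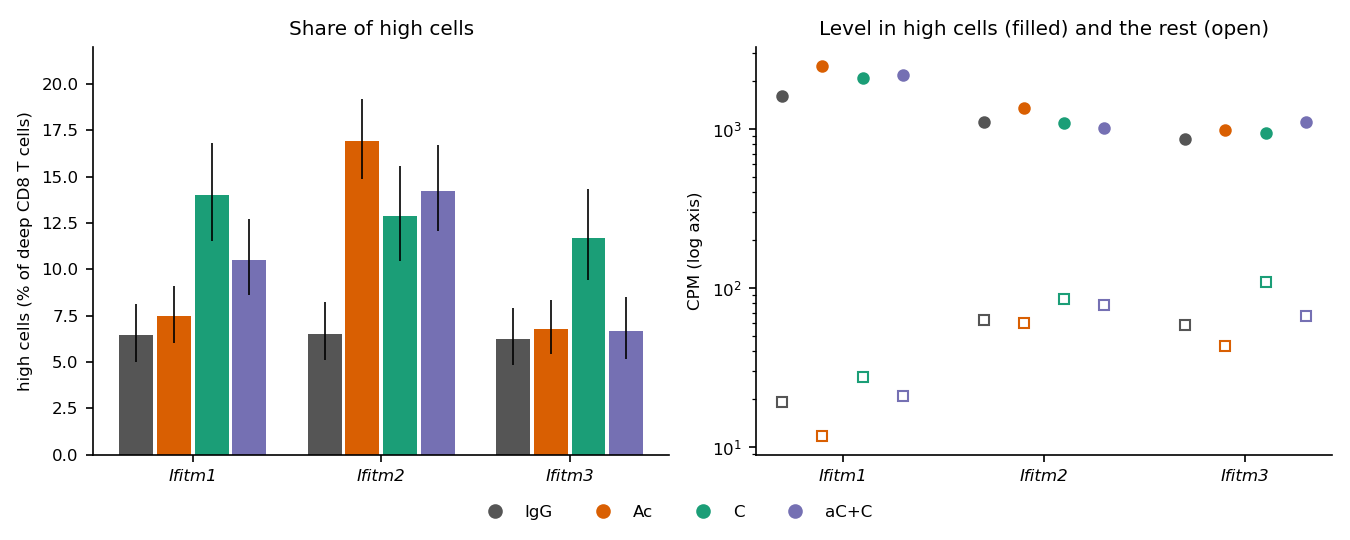
Percent of CD8 T cells with at least 5000 UMIs that were high in Ifitm1, Ifitm2 or Ifitm3 in each library (left, bars with exact 95% binomial intervals), and the level in those cells (filled) and in the remaining ones (open squares) in UMIs per 1000000 on a log axis (right). Ac has the largest share for Ifitm2 (16.9%) and C for Ifitm1 (14.0%) and Ifitm3 (11.7%).

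The high states overlapped within cells. Cells high in both Ifitm1 and Ifitm2 numbered 25, 55, 42 and 48, where the product of the separate shares gives 4.24, 14.9, 12.5 and 13.7 cells. That is 38.5, 62.5, 43.3 and 50% of the Ifitm1-high cells. Of the Ifitm2-high cells 37.9, 27.5, 47.2 and 36.9% were also Ifitm1-high, so in every library most were not. In NK cells 88.9, 78.9, 80.4 and 100% of Ifitm1-high cells were also Ifitm2-high, and 24.2, 14.6, 25.2 and 26.2% of Ifitm2-high cells were Ifitm1-high. The cells high in both numbered 32, 15, 41 and 17 there, where the product of shares gives 13.3, 5.56, 19.7 and 6.01. The transcripts of the members are alike in part: the longest identical stretch is 69 bases for Ifitm2 and Ifitm3, 64 for Ifitm1 and Ifitm3 and 40 for Ifitm1 and Ifitm2, and within their last 400 bases, where this 3' assay reads, 27, 39 and 29. Reads within such stretches could have been split or dropped, and their part in the overlap was not tested.

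Clusters of CD8 T gate cells, built without the members, showed where each lay; they are numbered and named by leading genes only. Cluster 0 (575 cells, led by Gm156, Fcer1g and Lgals3) held 479 CPM of Ifitm1 and 22.5% of all CD8 Ifitm1 UMIs. Its level was 335, 493, 601 and 558 CPM. Cluster 14 (111 cells, led by Gzmg, Gzmd and Gzme) held 551 CPM of Ifitm1 and 560.1 of Ifitm2 over all libraries. In C its 21 cells held 436 UMIs of Ifitm1, or 1636 CPM and 12.2% of the library's CD8 Ifitm1 UMIs. A single CD8 T cell of C held 278 Ifitm1 UMIs (7.77%), and whether it lay in this cluster was not examined. In aC+C the 55 cells of cluster 14 had 393 CPM. That lay below cluster 4, led by Penk, Ccr7 and Gpm6b (672 CPM), and cluster 0.

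A cluster found mainly in the Ac library carried part of its Ifitm2. Cluster 3, led by Ly6c2, a surface antigen of memory and effector CD8 T cells, and by Ccl5, a T cell chemokine, had 376 cells, of which 329 were from Ac, or 27.0% of its CD8 T cells. Its Ifitm2 level in Ac was 566 CPM (539 to 594), and it held 35.0% of that library's CD8 Ifitm2 UMIs and 28.4% of its Ifitm1 UMIs. The 22 cells of IgG in it had 182 CPM of Ifitm2 and 1 UMI of Ifitm1. Without cluster 3 the Ac ratio for Ifitm2 was 1.55 in place of 1.96. A cluster mostly of 1 library may be that library and not a cell type.

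Clusters with signs of other lymphocytes carried members as well. Cluster 10 (162 cells, led by Tyrobp, Gzmc and Ncr1, genes shared with NK cells) held 400.1 CPM of Ifitm2 in IgG and 391 in C, and 37.9% of the IgG Ifitm2 UMIs of CD8 T cells. Cluster 8 was led by Foxp3, which marks regulatory T cells, and cluster 13 by Il17a. Without clusters 8, 10 and 13 the Ifitm1 ratios were 1.97, 2.98 and 2.25, and that of Ifitm2 in Ac was 2.77. Cluster 9 (178 cells) had Klf2 and Tcf7 among its leading genes, both genes of naive and memory T cells. It was almost free of both members, with 1 or 2 UMIs of Ifitm1 per library (2.16, 3.80, 2.75 and 4.52 CPM) and 3, 0, 2 and 2 of Ifitm2, the 0 allowing up to 14.0 CPM in Ac. Ifitm3 UMIs there came to 84.3, 19.0, 33.0 and 27.1 CPM, against 1171 to 2029 CPM in free RNA, and the part of free RNA was not tested.

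**Figure D4:**
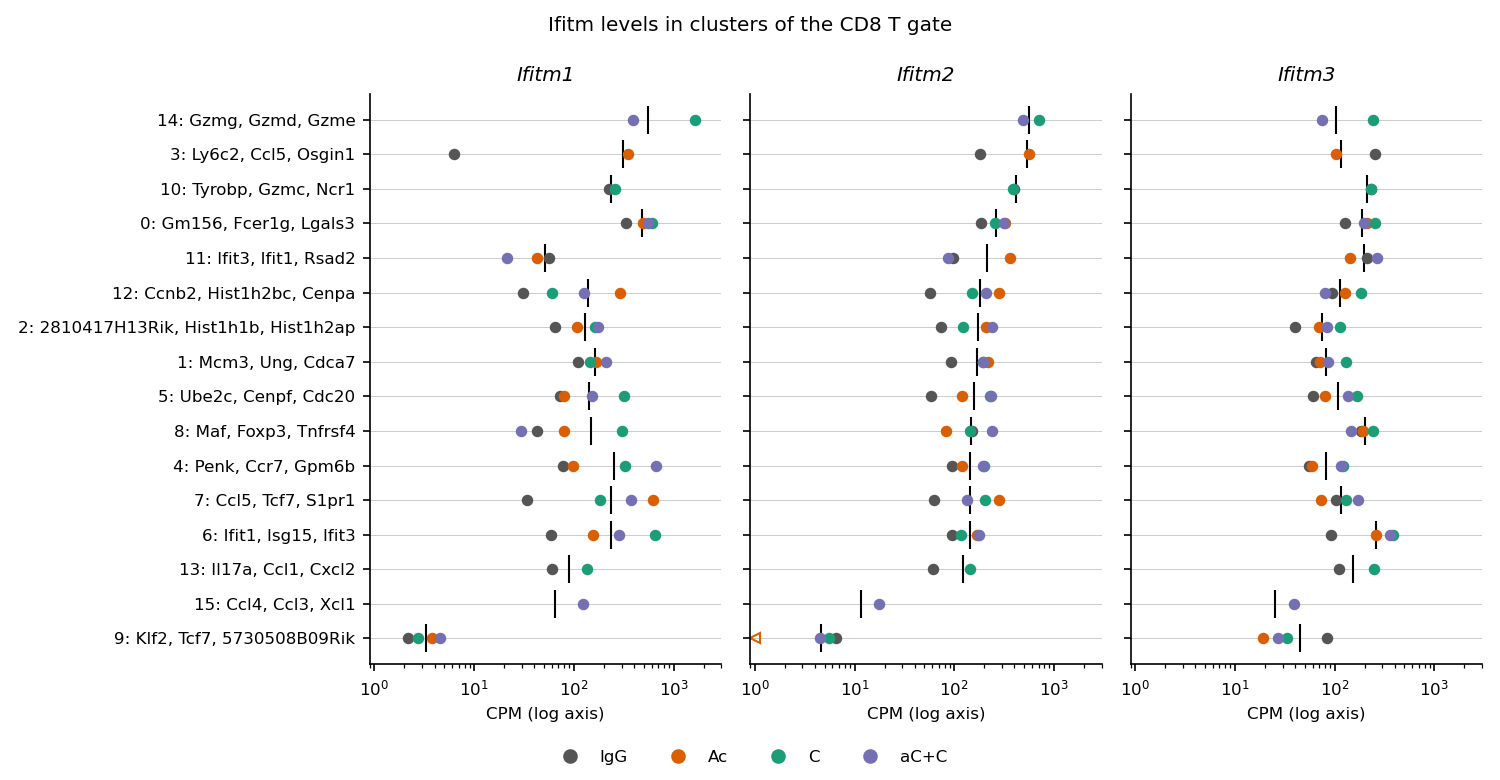
Levels of Ifitm1, Ifitm2 and Ifitm3 (UMIs per 1000000, log axis) in the clusters of the CD8 T gate, by library for clusters with at least 20 of its cells; black ticks are all libraries summed and open left triangles mark 0 UMIs. By library, cluster 9 lies at 0 to 6.49 CPM of Ifitm1 and Ifitm2, whereas cluster 14 reaches 1636 CPM of Ifitm1 in C, from 21 cells.

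Within clusters the differences from IgG were in part kept. Clusters with at least 20 cells and 10 UMIs of the member in both libraries were compared, a minimum of UMIs set after the values were seen. Ifitm1 was higher than in IgG in 9 of 10 such clusters for Ac, 11 of 11 for C and 8 of 9 for aC+C, with median ratios of 1.59, 2.499 and 2.69. Ifitm2 was higher in 10 of 11, 9 of 11 and 9 of 10, with medians of 2.33, 2.09 and 2.08. For Ifitm3 the medians were 1.09, 1.99 and 1.54. Clusters of 1 library are not replicates of a group. When the cluster levels of each group were weighted by the cluster shares of IgG, Ifitm1 came to 199, 290.3 and 245 CPM and Ifitm2 to 252, 215 and 248. When the IgG levels were weighted by each group's shares, they came to 91.5, 120.4 and 106 CPM of Ifitm1 and 126, 154 and 119.8 of Ifitm2. The IgG levels themselves were 119.8 and 143. No minimum of cells or UMIs was applied in this weighting. For Ac it gave cluster 3 the level of its 22 IgG cells, which held 1 UMI of Ifitm1.

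Genes that went with a member were sought by comparing its high cells with cells that had no UMI of it, within each library; a gene was counted when it differed at least 1.5 times in the same direction in all 4. In Ifitm1-high cells 14 of 7009 genes passed upward (0.2%) and 8 downward (0.114%). Ifitm2 was 4.76 to 8.18 times higher and Ifitm3 2.55 to 4.78 times. Among granzymes, the proteases of cytotoxic granules, Gzmc was at 2.79 to 9.76, Gzmf at 1.93 to 13.4 and Gzmd at 1.79 to 10.5 times, whereas Gzmg ranged from 0.173 in IgG to 89.9 in C. Fcer1g, a signalling adaptor, was at 2.08 to 3.37, Itga1, the collagen-binding integrin CD49a, at 1.99 to 3.22 and the kinase-like Styk1 at 1.97 to 2.75. Lower were the memory and progenitor marker Slamf6 (0.224 to 0.566), the chemokine Ccl3 (0.546 to 0.607), the kinetochore gene Cenpp (0.439 to 0.541) and Izumo1r, the folate receptor 4 (0.295 to 0.621).

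The genes named for Ifitm2-high CD8 T cells were in part those of Ifitm1-high cells. Of 5859 genes 18 were higher (0.307%) and 14 lower (0.239%). Ifitm1 was 14.6 to 71.4 times higher, Gzmc 8.38 to 21.5, Gzmf 6.18 to 12.02, Ifitm3 4.12 to 8.54, Gzmd 3.63 to 23.3 and Gzme 2.84 to 12.2. Car2, a carbonic anhydrase, was at 3.23 to 5.18 and AA467197 at 2.59 to 4.05 times. Tyrobp, an adaptor of NK receptors and a leading gene of cluster 10 as Gzmc is, was higher as well, at 7.74, 2.31, 3.80 and 2.84 times, while Cd8a was at 0.790, 0.968, 0.795 and 0.910; the part of NK-type cells was not tested. Lower were Ccl3 (0.249 to 0.344), Slamf6 (0.2499 to 0.326), the lymph node homing receptor Ccr7 (0.306 to 0.507) and 5730508B09Rik. Their median UMIs were 11520 to 17222.5, against 10542 to 12606.5 in cells without Ifitm2.

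Gzmc, Gzmd, Gzmf and the other members were thus named for both. Of the granzymes made in most cytotoxic T cells, Gzmb was at 1.03 to 1.69 times and Gzma at 0.912 to 1.40 in Ifitm1-high cells. In Ifitm2-high cells Gzmb was at 1.29 to 1.73 and Gzma at 2.09, 2.66, 0.956 and 2.25, so Gzma was higher in 3 libraries. In Ifitm1-high cells the interferon-induced Isg15 was at 0.732 to 0.908, and the inhibitory receptor gene Pdcd1 at 0.949 to 1.13. The macrophage gene Lyz2 was at 0.927 to 1.29 and the class II chain Cd74 at 0.673 to 1.12, with Cd3e at 0.892 to 1.06.

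In Ifitm3-high cells 14 of 5219 genes were higher (0.268%) and 3 lower (0.0575%). Fcer1g (2.36 to 2.60 times), Car2 (2.07 to 5.41) and the secreted phosphoprotein Spp1 (2.03 to 4.34) were higher here and in Ifitm2-high cells. Also higher were Ifit1 (1.98 to 3.05 times), Ifih1 (1.85 to 2.38) and Isg15 (1.80 to 3.13), all induced by interferon. The other members were higher as well, Ifitm1 4.52 to 7.44 times and Ifitm2 2.84 to 10.3. Cd74 was at 2.80, 1.29, 1.33 and 0.480 in Ifitm3-high cells and Lyz2 at 0.993, 1.44, 0.931 and 0.861. The part of RNA from antigen-presenting or myeloid cells was not tested. The rule that named Ifitm3's genes was taken over from the other members after their values were seen.

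**Figure D5:**
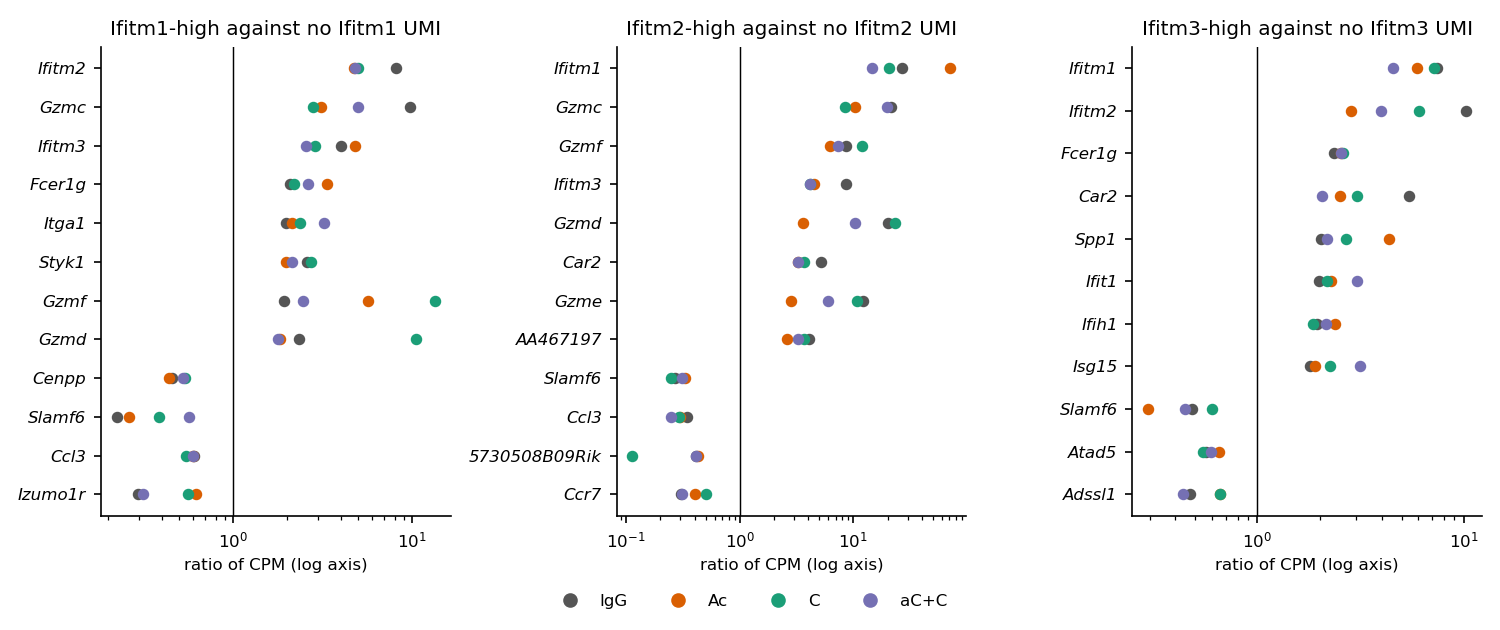
Ratio of level in cells high in Ifitm1, Ifitm2 or Ifitm3 to cells with no UMI of it (log axis), 1 point per library, for named genes in the CD8 T gate. Gzmc lies above 1 in every library for Ifitm1 (2.79 to 9.76) and Ifitm2 (8.38 to 21.5), and the interferon-induced Ifit1, Ifih1 and Isg15 are named for Ifitm3, with Isg15 at 1.80 to 3.13.

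For fixed lists of genes, the members' levels in the 25% of CD8 T cells with the highest summed list level were set against the rest. The lists share genes with the companions named above, among them Gzmd, Gzme, Gzmf, Isg15 and Ifit1. The same cells were used, so these ratios describe the same overlap from the side of the lists and are not separate support. For granzymes D to G the ratio was 2.11 to 5.84 for Ifitm1, 2.29 to 4.70 for Ifitm2 and 1.46 to 1.91 for Ifitm3, above 1 in all 4 libraries. For a list of NK receptors and their adaptors the ratios were 1.71 to 2.13, 1.82 to 2.49 and 1.36 to 1.76. For interferon-induced genes Ifitm3 was at 1.57 to 3.04 in 4 libraries. Ifitm1 and Ifitm2 each exceeded 1 in 1 library, Ac (ranges 0.509 to 1.08 and 0.644 to 1.31). In Ac, Ifitm1 was at 1.08 (0.995 to 1.16) and Ifitm2 at 1.31 (1.23 to 1.40). In the 10% of cells highest in that list Ifitm1 and Ifitm2 each exceeded 1 in 2 libraries, Ac and C. Their ranges were 0.484 to 1.81 and 0.896 to 1.399, and Ifitm3 exceeded 1 in 4 (1.97 to 3.29). Cells with the most cycling genes had ratios below 1 for all 3 members in all 4 libraries. They were deeper, with median UMIs of 20592 to 22069 against 9444 to 11664 in the rest, and the part of depth was not tested. The naive or memory list exceeded 1 in 1 library for Ifitm1, 0 for Ifitm2 and 1 for Ifitm3 (0 for each in the highest 10%), and the inhibitory receptor list in 3, 0 and 3.

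In NK cells the high states were commoner. Ifitm2-high cells made up 37.0, 29.3, 38.6 and 35.3% of NK cells with at least 5000 UMIs, Ifitm3-high cells 26.6, 21.3, 27.0 and 26.6% and Ifitm1-high cells 10.1, 5.40, 12.1 and 9.24%. Against NK cells without Ifitm2, 24 of 2363 genes were higher in every library in Ifitm2-high cells (1.02%) and 63 lower (2.67%). Gzmg was 6.90 to 96.7 times higher and Gzmd 5.90 to 19.1 times, so granzymes of this group went with Ifitm2 in both lymphocyte gates. The metallothionein Mt2 was at 7.64 to 39.8, Ifitm1 at 33.4 to 162 and Ifitm3 at 5.01 to 6.39. The chemokine Ccl5 was at 0.00414 to 0.0654 and the chemokine receptor Cxcr4 at 0.0636 to 0.133 times. These cells were deeper, with median UMIs of 15791 to 19126.5 against 7069.5 to 10271.5, and the part of depth was not tested. For Ifitm3-high NK cells 15 of 2093 genes were higher (0.717%) and 35 lower (1.67%). For Ifitm1 no comparison was made, since 2 libraries had under 20 such cells.

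Most other interferon-induced genes did not share the higher Ifitm1 and Ifitm2 levels of the CD8 T gate. Of a list of 31 such genes, 0 passed upward and 3 downward in Ac (Oasl1 0.524, Oasl2 0.584 and Ifi44 0.478), with a median ratio of 1.01 against 0.972 over all genes. In C 2 were higher (Oas1a, a synthetase that senses double-stranded RNA, at 1.70 and its relative Oasl2 at 2.00) and 0 lower, with a median of 0.916 against 1.005. In aC+C 0 were higher and 5 lower (Ifi44 0.413, Oasl2 0.602, Slfn5 0.643, Rsad2 0.659 and Stat2 0.662), with a median of 0.868 against 0.930. The ubiquitin-like Isg15 was at 1.203, 0.684 and 0.925, the antiviral Ifit3 at 1.25, 0.916 and 0.868 and the virus-tethering Bst2 at 1.01, 0.929 and 0.838. The transcription factor gene Irf7 lay near or below 1 (0.859, 1.01 and 0.848) while Ifitm1 and Ifitm2 were at 1.53 to 2.55. Of the receptor genes, Ifnar1 was at 0.903, 0.903 and 0.667 and Ifngr1 at 1.02, 1.02 and 0.845.

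In the other gates that list had medians of 1.06, 0.9402 and 1.03 in NK cells, 0.791, 0.848 and 0.961 in myeloid cells and 0.841, 0.878 and 1.17 in stromal cells. At least 1.5 times higher were 2 of 28, 1 of 29 and 2 of 27 measured genes in NK cells. The counts were 0, 1 and 0 of 31 in myeloid cells and 0 of 29, 1 of 30 and 4 of 31 in stromal cells. At least 1.5 times lower were 0, 0 and 0, then 4, 0 and 0, then 2, 3 and 1. Over all genes 1.45%, 2.39% and 5.2% passed in either direction in NK cells. In myeloid cells 4.87%, 4.75% and 6.8% passed, and in stromal cells 3.57%, 4.73% and 8.88%.

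Over 32 profiles (8 gates in 4 libraries) the genes whose log2 level correlated best with each member were named. For Ifitm3 these were Aldh2 (r = 0.964), Lmo4 (0.955), Dstyk (0.953), Tns3 (0.946) and Bri3 (0.9404), and for Ifitm6 Ceacam1 (0.972), H3f3a (0.946), Sbno2 (0.946), Nod2 (0.9399) and Tspo (0.939). The likeness was weaker for Ifitm2, with Mgrn1 (0.866), B4galt6 (0.863), Diaph2 (0.854), Creg1 (0.853) and Baz2b (0.853), and for Ifitm1, with Napsa (0.812), Haao (0.812), Hhex (0.794), Olfm1 (0.790) and Cdh1 (0.790). Between members r was 0.756 for Ifitm1 and Ifitm2, 0.743 for Ifitm2 and Ifitm3 and 0.380 for Ifitm1 and Ifitm3, and for Ifitm6 it was 0.598 with Ifitm1, 0.635 with Ifitm2 and 0.600 with Ifitm3. Profiles of 1 library share its depth and its free RNA. With an offset of 1 CPM in place of 10, 3, 4, 2 and 2 of the 5 genes of Ifitm1, Ifitm2, Ifitm3 and Ifitm6 stayed on the list.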

How the data were processed

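Per the labels, a v2 kit of 10x Genomics for 3' ends was used. The submitters' processing notes name Cell Ranger 2.1.1 and mm10, while the file headers name software version 3.0.2. The deposited values are UMI counts, not normalized and not filtered for cells (6794880 barcodes per library), and the deposited gene and barcode lists hold names (other). The libraries' sums were 61519049, 65973242, 75665201 and 75067320 UMIs (IgG, Ac, C, aC+C). The handling of reads that match more than 1 gene is not given in the sources used here.

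Gates used summed marker UMIs per 10000; their thresholds, and the removal of class II cells, were set after seeing the data. The myeloid gate was divided by macrophage and monocyte genes, and the stromal gate by fibroblast and mesenchymal tumor genes. CPM have exact Poisson intervals, ratios exact conditional binomial intervals and shares Clopper-Pearson intervals, at 95%. Genes counted had at least 100 UMIs over both libraries or cell sets. Clusters came from 30 principal components, 15 neighbours and Leiden resolution 1 (scanpy 1.11.5, leidenalg 0.10.2, igraph 0.11.9), leaving the members out, without integration. Other software was Python 3.11.15, numpy 2.4.6 and scipy 1.17.1. The ratio script was tested on simulated data.

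Named genes were the members, the 5 best correlated genes of each member on log2(CPM + 10) among those with at least 500 UMIs, the 8 highest and 4 lowest companions in high cells by their smallest change, and listed genes, of which some are not reported here. Doublets were removed only as an alternative, as the cells with the highest Scrublet scores at 0.8% per 1000 cells (94, 130, 142 and 133 cells). Other alternatives changed the UMI and mitochondrial limits, gate thresholds, free RNA, averaging and offset. The members and lists were chosen with earlier results of these data known.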

Additional observations from a re-analysis of the deposited data

Results flagged for a closer look

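In 5 cases a member's ratio to IgG pointed one way in CD8 T cells and the other way in another gate, by at least 1.2 times on each side and with counting intervals that leave out 1. With 1 library per group, the difference between gates was not tested in any of them. Ifitm1 in Ac was 1.78 times the IgG level in CD8 T cells and 0.663 times in NK cells. With class II cells kept the CD8 T ratio was 1.046 (0.999 to 1.09), so this case depended on leaving those cells out. Over all alternatives that ratio ran from 1.046 to 1.97. Ifitm2 in Ac was at 1.96 in CD8 T cells and 0.822 in NK cells. Ifitm1 in C was at 2.55 in CD8 T cells, 1.31 in NK cells and 1.65 in stromal cells, against 0.763 in myeloid cells. The parts of the myeloid gate differed here, with 0.660 (0.620 to 0.703) in macrophages and 1.14 (1.03 to 1.27) in monocytes. Ifitm2 in C was at 1.53 in CD8 T cells and 0.827 in myeloid cells. In macrophages it was at 0.788 and in monocytes at 0.977, where the interval, 0.930 to 1.03, holds 1. Ifitm2 in aC+C was at 1.63 in CD8 T cells and 0.765 in stromal cells. Within the stromal gate it was at 0.826 (0.791 to 0.862) in the fibroblast part. In the part with mesenchymal tumor genes it was at 0.852 (0.802 to 0.905), short of 1.2 times. That part had 40 cells in IgG and 183 in aC+C, and the effect of the gate's make-up was not tested.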

How the results depend on the processing

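Of 408 ratios recomputed under the alternatives, 315 moved by less than their counting interval, 90 moved further and 3 turned direction, counted only where the reported interval left out 1. In CD8 T cells Ifitm1 of C over IgG was 2.55 as reported, 2.79 after subtraction of 5% free RNA, 2.93 as a mean of per-cell CPM and 2.99 without the 1% of cells richest in it. With alternatives chosen after seeing the data it was 1.63 with class II cells kept and 2.98 without the clusters led by Foxp3, NK receptor and Il17a genes. Ifitm2 of Ac over IgG was 1.96 as reported and 2.20, 2.54, 2.25, 1.48 and 2.77 under the same settings, and 1.55 without the cluster led by Ly6c2 and Ccl5. The direction turned for Ifitm3 of aC+C over IgG in CD8 T cells, 1.17 as reported, at 0.520 with free RNA subtracted and 0.6996 with class II cells kept, and for Ifitm6 of Ac over IgG in myeloid cells, 0.818 as reported, at 1.045 as a mean of per-cell CPM. The cause was not tested. No paired analysis was possible because the labels carry no replicate numbers and each group has 1 library. Group, mouse, tumor, capture and sequencing cannot be told apart here, and the few Ifitm6 UMIs of CD8 T and NK cells allow no ratio.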

Other observations

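Ifitm10, a distant relative on the same chromosome at chr7:142325837-142373753 (GRCm38, GENCODE M21), was a lymphocyte gene in these libraries, unlike Ifitm3 and Ifitm6. In the order IgG, Ac, C and aC+C it stood at 20.2, 29.6, 22.9 and 16.9 CPM in CD8 T cells and at 29.8, 42.2, 38.5 and 30.9 CPM in NK cells. Myeloid cells had 2.75, 0.798, 1.25 and 0.913 CPM. Its highest level in both lymphocyte gates was in Ac.

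CD4 T cells held 79.1, 64.3, 68.4 and 158 CPM of Ifitm1, 184, 190.5, 345 and 323 CPM of Ifitm2 and 312, 285, 367 and 426 CPM of Ifitm3. Their Ifitm1 level was lower than that of CD8 T cells in every library, whereas their Ifitm3 level was higher in every library.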
